A study of Mus musculus with 26 samples.

Results

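TCRTg101 cells are CD8+ and carry a transgenic TCR that recognises the mouse leukemia line C1498, and 10 genes linked to T cell anergy were followed in them. These are the ubiquitin ligases Cblb, Cbl, Itch, Rnf128 (GRAIL), Nedd4 and Peli1, the ligase adaptors Ndfip1 and Ndfip2, and the diacylglycerol (DAG) kinases Dgka and Dgkz. They were taken as a list named for this work from 35944 genes with a matched transcript, and all 10 were among the 15465 genes that passed the low count filter. All are annotated as protein coding, and gene coordinates are those of GRCm38. The question asked of them was whether genes of the anergy program move with activation of the cells.

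Anergy is a state in which a T cell that has met antigen no longer responds in full. E3 ligases attach ubiquitin to signaling proteins below the TCR (T cell receptor) and mark them for removal or altered traffic, and NDFIP adaptors recruit and activate ligases of the NEDD4 family. DAG, made by PLC-γ1 when the receptor is engaged, draws RasGRP1 and PKC-θ to the membrane, and DAG kinases end that signal by turning DAG into phosphatidic acid.

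RNA sequencing covered 14 low-input libraries from sorted cells of the C57BL/6 background, listed as wild type and 6 weeks old, and 1 library primed with oligo-dT. The labels give 3 control libraries (controls 1 and 2 of day 0, and control 3 of day 18 from a leukemia-free mouse), 1 library of undivided cells (CTVhi, that is with undiluted division dye) from a leukemia-bearing host at day 18, 2 early spleen libraries (day 7), 1 spleen library of day 14, 2 early liver libraries (day 7), 3 mid liver libraries (2 of day 13 and 1 of day 14) and 2 late liver libraries (days 16 and 18). All leukemia-bearing hosts had received naive TCRTg101 and C1498 cells. Controls came from spleen, so leukemia and tissue cannot be told apart in any comparison of liver with control. Library titles form a TG series (control 1, mid liver 1 and late liver 1) and an XC series (the other 11). The labels do not say that libraries of a group came from separate animals, so p-values measure the spread between these libraries, which may be technical. Low-input libraries held 22691255 to 70719703 estimated counts (median 34038236).

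Several libraries stood apart from their group. Early liver 1 was activated, with 153.8 CPM (counts scaled to library size) of Pdcd1 (PD-1) and 227.6 CPM of Gzmb (granzyme B), whereas early liver 2 held 2.63 and 5.08 CPM, close to the controls (1.12 to 2.44 and 1.79 to 3.16 CPM). The day 14 spleen library lay between, with 32.8 CPM of Pdcd1 and 116.4 CPM of Gzmb. All 5 CD8 T cell markers reached 1 CPM in every group, and their summed level was 4571 to 5406 CPM in controls and 4034 to 5226 CPM in livers of days 13 to 18. Markers of other cells differed between groups. Summed hemoglobin genes ran from 148.7 to 20800 CPM in controls and from 5.40 to 174.2 CPM in those livers, and macrophage genes from 10.2 to 623 CPM and from 9.93 to 36.9 CPM. The 5 hepatocyte genes summed to 0.200 to 0.927 CPM in controls, with Alb and Ttr under 0.05 CPM in each, and to 2.52 to 181.3 CPM in livers of days 13 to 18. Summed levels of B cell genes were 21.4 to 34.1 and 11.4 to 36.0 CPM, of Cd4 0.143 to 5.49 and 0.339 to 0.934 CPM, of liver endothelium 1.11 to 15.3 and 0 to 0.740 CPM, and of NK cells 0.677 to 4.52 and 1.63 to 5.49 CPM in the 2 sets. The part of these other cells in the values below was not tested, and in bulk RNA fewer cells of a type and less RNA per cell cannot be told apart.

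Of the 10 genes, 9 changed in livers of days 13 to 18 relative to controls, and they did not move one way. Rnf128, Ndfip1, Cblb, Ndfip2 and Dgkz rose, and Peli1, Dgka, Itch and Cbl fell. Among all genes tested in the same fit, 43.8% were called at an adjusted p under 0.05, 23.1% higher and 20.8% lower, so change as such was common in these cells. The median log2 fold change was -0.01 over the 10 genes and -0.07 over all genes. In 5 of the 10 genes (Rnf128, Ndfip1, Ndfip2, Peli1 and Dgka) the 5 liver libraries did not overlap the 3 controls, which was so for 37.0% of all genes tested.

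**Figure D1:**
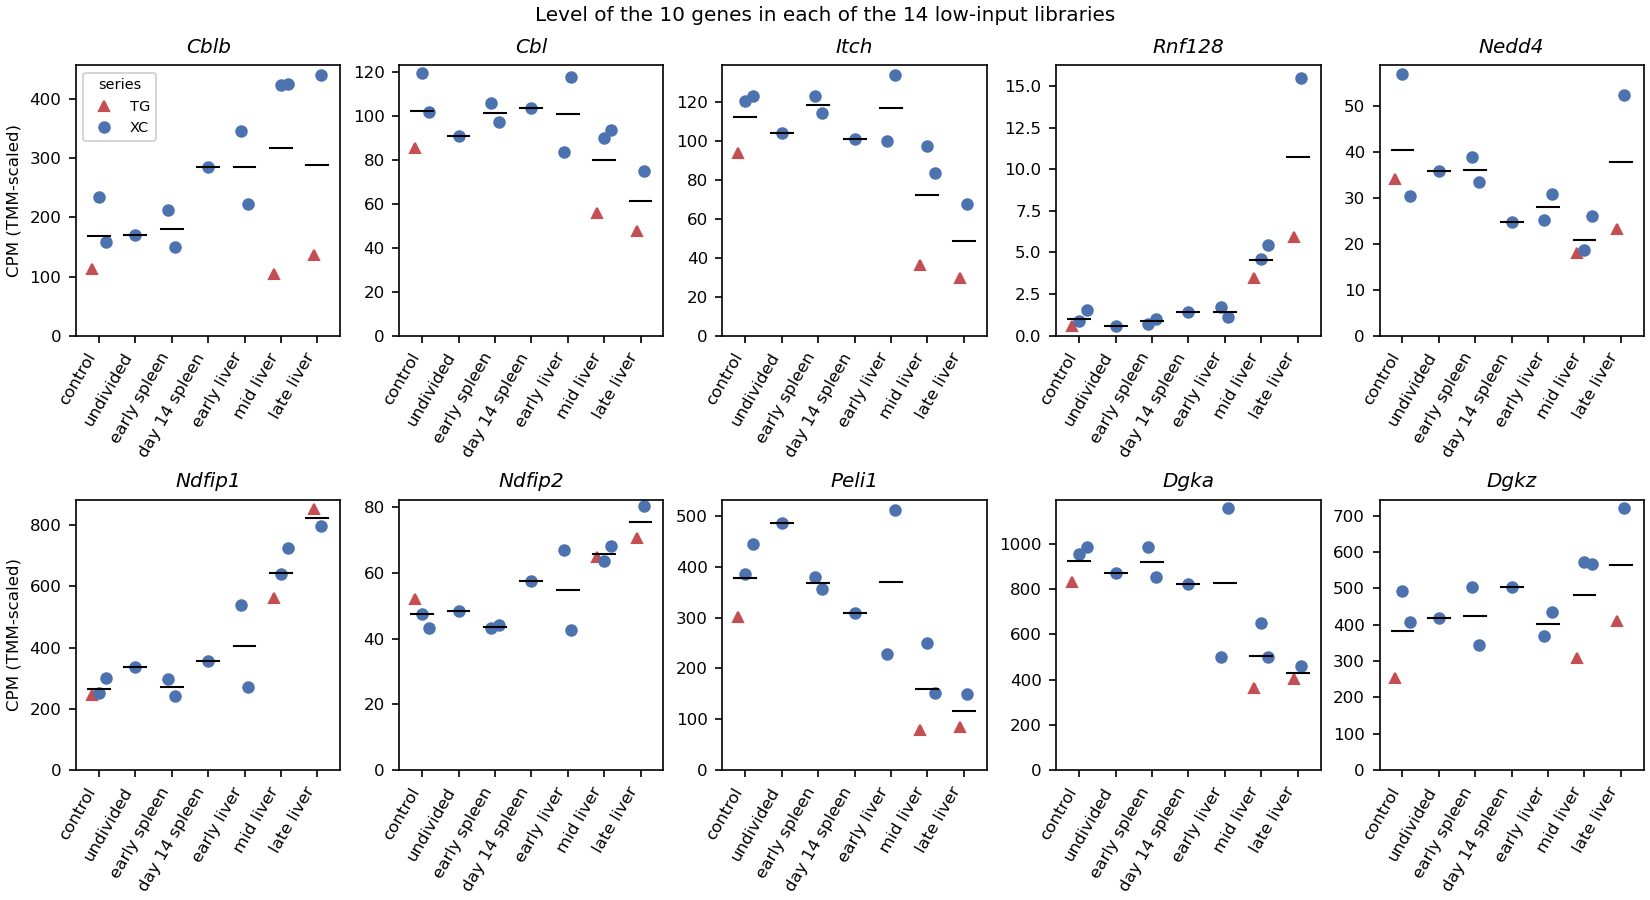
Level of each of the 10 genes (CPM, TMM-scaled, vertical axis from 0) in the 14 low-input libraries by group; triangles are libraries of the TG series, circles those of the XC series, and bars the group means. Rnf128 lay between 0.569 and 1.56 CPM in controls and between 3.47 and 15.5 CPM in mid and late liver, while Dgka was at 834 to 988 CPM in controls and 361 to 649 CPM in mid and late liver.

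Promoters are shown for Rnf128 and Ndfip2, which rose, and for Cbl and Dgka, which fell, so that both directions are shown. They are RefSeq windows of 300 bases on GRCm38.p6, from 250 bases before the start to 50 after it, written on the strand of the gene. Capitals mark matches on either strand to the NFAT core GGAAA, the AP-1 site TGANTCA, the Egr site GCGNGGGCG or the FoxO site GTAAACA, which are factors of TCR signaling and quiescence. Rnf128 lies at chrX:139610370-139610669 (+), Ndfip2 at chr14:105258373-105258672 (+), Cbl at chr9:44233997-44234296 (-) and Dgka at chr10:128744027-128744326 (-).
Rnf128: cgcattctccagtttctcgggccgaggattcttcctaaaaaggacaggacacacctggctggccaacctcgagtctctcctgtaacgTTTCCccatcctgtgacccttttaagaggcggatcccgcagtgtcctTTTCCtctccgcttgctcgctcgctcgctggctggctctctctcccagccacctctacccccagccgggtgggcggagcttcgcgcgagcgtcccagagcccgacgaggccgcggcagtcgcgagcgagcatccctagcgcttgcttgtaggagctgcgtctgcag
Ndfip2: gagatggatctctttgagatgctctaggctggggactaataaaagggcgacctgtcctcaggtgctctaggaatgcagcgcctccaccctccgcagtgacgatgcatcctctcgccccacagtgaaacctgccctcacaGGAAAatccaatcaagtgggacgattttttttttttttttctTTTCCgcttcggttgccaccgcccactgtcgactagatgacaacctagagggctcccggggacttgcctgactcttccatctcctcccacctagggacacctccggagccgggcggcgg
Cbl: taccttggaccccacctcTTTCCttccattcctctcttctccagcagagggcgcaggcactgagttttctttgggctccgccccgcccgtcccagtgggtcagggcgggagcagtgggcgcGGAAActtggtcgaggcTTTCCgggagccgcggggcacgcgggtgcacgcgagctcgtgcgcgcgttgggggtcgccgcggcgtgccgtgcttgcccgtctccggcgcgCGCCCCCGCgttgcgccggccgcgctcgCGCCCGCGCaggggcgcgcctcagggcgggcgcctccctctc
Dgka: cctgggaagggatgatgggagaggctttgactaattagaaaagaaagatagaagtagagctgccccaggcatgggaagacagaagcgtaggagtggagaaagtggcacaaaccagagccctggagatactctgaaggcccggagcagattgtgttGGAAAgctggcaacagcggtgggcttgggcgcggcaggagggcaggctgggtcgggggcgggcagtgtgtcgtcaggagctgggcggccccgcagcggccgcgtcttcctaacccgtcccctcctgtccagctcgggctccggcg
The Rnf128 start is that of Rnf128-201, the transcript that held most of its counts, and the Dgka start is 1 base before that of Dgka-201. The Ndfip2 start is 130 bases before that of Ndfip2-202, and the Cbl start 50 bases before that of Cbl-201. In the windows shown, Rnf128 and Ndfip2 had 2 matches each to GGAAA, Cbl had 3 and Dgka 1. Dgka has further RefSeq windows, not shown, with 3, 0 and 2 matches to GGAAA. This short motif stands in 61.5% of 32544 promoter windows. Cbl also had 2 matches to the Egr site, found in 5.60% of windows. TGANTCA (7.79% of windows) and GTAAACA (3.66%) were in none of the 4 shown. A match is a string of letters and not a site shown to be bound.

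Rnf128 (ENSMUSG00000031438.11, chrX:139563316-139673145, + strand) encodes GRAIL, a transmembrane RING ligase of endosomes that is induced in anergic CD4+ T cells. It was at 0.569, 0.879 and 1.56 CPM in the controls, at 3.47, 4.61 and 5.48 CPM in mid liver and at 5.95 and 15.5 CPM in late liver. It thus rose in all 5 of these libraries from a level that rested on 38 to 48 estimated counts a library in controls to one of 127 to 547. The log2 fold change was 2.88 (SE 0.39, adjusted p = 0.00240), or 7.38-fold, the largest of the 10. Even so, Rnf128 stayed the least abundant of them per length in both sets, at a mean of 0.467 TPM (a share of all transcripts corrected for length) in controls and 2.59 TPM in liver. Hepatocyte RNA was higher in the same livers, and its part in the Rnf128 level was not tested. Alb (albumin) was at 85.9, 8.49 and 0.913 CPM in mid liver and at 131.7 and 24.4 CPM in late liver.

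Cblb (ENSMUSG00000022637.11, chr16:52031225-52208048, + strand) encodes CBL-B, a RING ligase that sets the need for CD28 costimulation. It was at 112.7, 233.7 and 158.3 CPM in controls, at 104.0, 423.3 and 424.8 CPM in mid liver, and at 135.7 and 440.4 CPM in late liver. The XC livers were all above the XC controls, and of the TG livers 1 lay below and 1 above the TG control. The log2 fold change was 0.75 (SE 0.27, adjusted p = 0.0461), and in the XC series alone it was 1.08 (SE 0.30, adjusted p = 0.0732). Within series, the mid liver difference on the log2 scale was -0.12 in TG (1 library against 1) and 1.14 in XC (2 against 2), and the late liver differences were 0.27 and 1.20. On leaving out each of 12 libraries in turn the call held for 4, namely control 1 (1.16), early liver 1, early liver 2 and mid liver 1. It was lost without control 2, control 3 (0.49) or either early spleen library, and without mid liver 2, mid liver 3, late liver 1 or late liver 2.

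Cbl (ENSMUSG00000034342.9, chr9:44142976-44234049, - strand) encodes c-CBL, the close relative that acts on receptor and kinase complexes. Its levels were 85.6, 119.6 and 102.1 CPM in controls, 55.7, 90.0 and 93.7 CPM in mid liver, and 47.5 and 75.2 CPM in late liver. It fell by 0.53 on the log2 scale (SE 0.16, adjusted p = 0.0203). Mid livers 2 and 3 lay within the control range, but each liver library was below the controls of its own series. Without control 1 the log2 value was -0.42 (adjusted p = 0.140), without control 2 -0.52 (0.0635) and without late liver 1 -0.50 (0.0755).

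Peli1 (ENSMUSG00000020134.13, chr11:21091291-21150323, + strand) encodes Pellino 1, a ligase that restrains NF-κB signaling by acting on c-REL. It was at 301, 386 and 444 CPM in controls, at 78.6, 250 and 151 CPM in mid liver, and at 84.5 and 149 CPM in late liver. Each of the 5 liver libraries was below every control. It fell by 1.47 on the log2 scale (SE 0.28, adjusted p = 0.00425), so that liver held 0.361 of the control level.

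Itch and Nedd4 are HECT ligases of the same family, and Itch targets JunB and PLC-γ1 among others. Itch (ENSMUSG00000027598.16) lies at chr2:155133509-155226855 on the + strand and Nedd4 (ENSMUSG00000032216.14) at chr9:72662346-72749852 on the + strand. Itch was at 93.5, 120.3 and 123.1 CPM in controls, at 36.2, 97.1 and 83.5 CPM in mid liver, and at 29.5 and 67.4 CPM in late liver. It was lowest in the TG livers, and 1 mid liver library lay inside the control range, but each liver library was below the controls of its own series. It fell by 0.97 on the log2 scale (SE 0.19, adjusted p = 0.00480). Nedd4 was at 34.1, 57.0 and 30.5 CPM in controls, at 18.0, 18.7 and 26.0 CPM in mid liver, and at 23.3 and 52.4 CPM in late liver. Its late libraries were far apart, and over both times the log2 value of -0.52 (SE 0.24, adjusted p = 0.0988) missed the threshold.

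The adaptors of these HECT ligases moved the other way from Itch. Ndfip1 (ENSMUSG00000024425.4, chr18:38410396-38465303, + strand), which activates Itch, was at 244, 251 and 300 CPM in controls, at 562, 641 and 727 CPM in mid liver, and at 854 and 796 CPM in late liver. The groups were well apart, at 716 ± 117 CPM in liver (SD, n = 5) and 265 ± 30.6 CPM in controls (SD, n = 3). The log2 fold change was 1.47 (SE 0.24, adjusted p = 0.00307). Ndfip2 (ENSMUSG00000053253.16, chr14:105258573-105309298, + strand), its paralog, was at 52.2, 47.4 and 43.1 CPM in controls, at 65.0, 63.7 and 68.2 CPM in mid liver, and at 70.8 and 80.5 CPM in late liver. It rose by 0.57 on the log2 scale (SE 0.17, adjusted p = 0.0224) without overlap. Leaving out any 1 control or late liver 2 ended the call, with values of 0.49 to 0.67.

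The DAG kinases moved in opposite directions. Dgka (ENSMUSG00000025357.8) lies at chr10:128720134-128744855 and Dgkz (ENSMUSG00000040479.11) at chr2:91932824-91975864, both on the - strand. Dgka, the isoform recruited to the immune synapse and induced in anergy, was at 834, 957 and 988 CPM in controls, at 361, 649 and 500 CPM in mid liver, and at 401 and 460 CPM in late liver. It was lower in each of the 5 liver libraries than in any control and fell by 0.97 on the log2 scale (SE 0.25, adjusted p = 0.0116). Without control 1 the value was -0.89 (adjusted p = 0.0899). Dgkz, the isoform that limits Ras signaling most in T cells, was at 253, 492 and 407 CPM in controls, at 308, 572 and 567 CPM in mid liver, and at 409 and 721 CPM in late liver. It overlapped between groups, but each liver library was above the controls of its own series. It rose by 0.51 on the log2 scale (SE 0.17, adjusted p = 0.0356), a call lost without any 1 of the controls or of the 5 liver libraries, at values of 0.43 to 0.57.

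The calls of Itch, Rnf128, Ndfip1 and Peli1 held on leaving out each of 12 libraries in turn, though that of Itch was lost without the series term (adjusted p = 0.0635). In the XC series alone 0 of the 10 genes and 6 of all genes were called. Within series, the 9 genes had the called direction in late liver of TG and in mid and late liver of XC, and 8 of 9, all but Cblb, in mid liver of TG. No value of the 9 called genes changed sign in the 23 alternatives run. The day 0 controls held the most hemoglobin and macrophage RNA, and after the data were seen the fit was also run with the day 18 control alone. The 9 genes kept their direction there, with 2.44 for Rnf128, 1.46 for Cblb, 1.31 for Ndfip1, -1.33 for Peli1 and -0.92 for Dgka on the log2 scale. That fit leaves 1 control, so its values stand as effect sizes without a call.

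**Figure D2:**
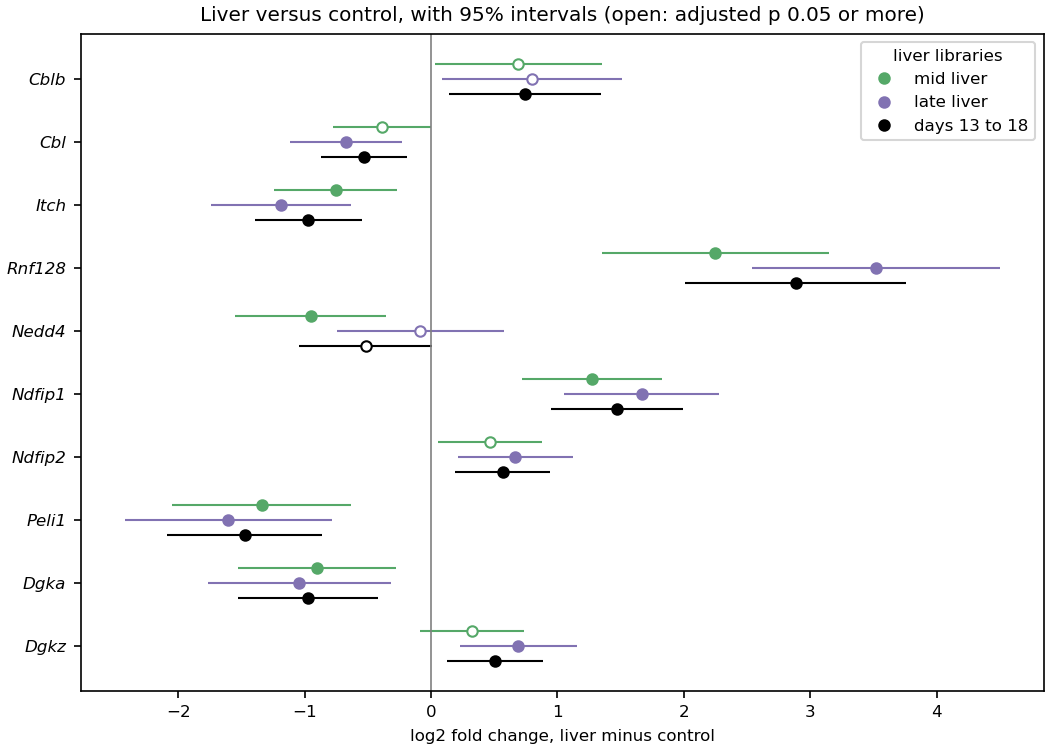
Log2 fold change (horizontal axis) of each gene in mid liver, late liver and both together relative to controls, with 95% intervals from edgeR; filled points have an adjusted p under 0.05. The intervals run from 2.01 to 3.76 for Rnf128 over both times and from -1.05 to 0.01 for Nedd4.

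By time, 6 of the 10 genes changed in mid liver, with Rnf128 and Ndfip1 higher and Peli1, Nedd4, Dgka and Itch lower. Over all genes 29.3% were called in mid liver, 17.5% higher and 11.8% lower. In late liver 8 changed, with Rnf128, Ndfip1, Dgkz and Ndfip2 higher and Peli1, Itch, Dgka and Cbl lower, against 34.2% of all genes (19.9% higher and 14.3% lower). The 2 comparisons share the controls. Rnf128 was at a log2 value of 2.25 (SE 0.40) in mid and 3.52 (SE 0.44) in late liver, Ndfip1 at 1.28 (SE 0.25) and 1.67 (SE 0.28), and Nedd4 at -0.95 (SE 0.27) and -0.08 (SE 0.30). Compared directly, late and mid liver differed in 0 of the 10 genes and in 0.00% of all genes by edgeR, and by DESeq2 0 of the 10 were called among 53 of all genes. At an unadjusted p under 0.05, 2 of the 10 differed, beside 4.96% of all genes. These were Rnf128, with 1.27 (95% interval 0.34 to 2.20) and Nedd4, with 0.87 (0.21 to 1.52), both higher in late liver. The mid liver count fell to 0 on leaving out control 1, control 2, mid liver 1 or mid liver 3. Over all genes 5, 0, 3 and 32 were called in those fits, in that order. The late liver count fell to 4 without control 1 (1375 of all genes called) or control 2 (3666), and to 5 without control 3 (4410). It also fell without late liver 1 or late liver 2, each of which leaves 1 late liver library.

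In the remaining groups 0 of the 10 genes were called by edgeR. This held for early liver against control (0.00% of all genes called), early spleen against control (0.00%), early liver against early spleen (0.00%), day 14 spleen against control (0.00647%), mid liver against day 14 spleen (0.00647%), undivided cells against control (0.00%) and late liver against undivided cells (0.00%). DESeq2 called 0 of the 10 in the first 6 of these, where it called 409, 15, 61, 12, 17 and 0 of all genes in that order. In late liver against undivided cells it called 3 of the 10 and 1947 of all genes. At an unadjusted p under 0.05 the counts were 1 for early liver against control (10.8% of all genes), 2 for mid liver against day 14 spleen (5.81%) and 6 for late liver against undivided cells (24.3%). They were 0 for early spleen against control (6.29%), early liver against early spleen (9.03%), day 14 spleen against control (5.14%) and undivided cells against control (1.13%). Lone libraries were assumed to vary like the other groups. Late liver and undivided cells came from different tissues of leukemia-bearing hosts at similar times, and Rnf128 was at 5.95 and 15.5 CPM in the former and 0.563 CPM in the latter (log2 fold change 4.58, SE 0.76, adjusted p = 0.0720). Peli1 was at 84.5 and 149 CPM against 486 CPM (-1.68, SE 0.48, adjusted p = 0.0937), and Ndfip1 at 854 and 796 CPM against 337 CPM (1.36, SE 0.41, adjusted p = 0.104).

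The 2 early liver libraries, whose activation differed, also differed in these genes. They differed in other markers too. The summed CD8 T cell markers were at 2811 CPM in early liver 1 and 4381 CPM in early liver 2, and the NK cell markers at 9.49 and 0.867 CPM, and the part of these in the values was not tested. Early liver 1 had 346 CPM of Cblb, 540 CPM of Ndfip1, 67.1 CPM of Ndfip2, 229 CPM of Peli1 and 501 CPM of Dgka. Early liver 2 had 223, 271, 42.5, 511 and 1157 CPM of the same genes. The first library was beyond the 3 controls in the direction of the later livers for these genes, and the second was inside the control range or beyond it on the other side. Of the 9 genes called at days 13 to 18, 7 lay beyond all 3 controls in the called direction in early liver 1 (all but Itch and Dgkz), where 71.7% of all called genes did so. Itch, at 99.8 CPM there, was below both controls of its own series (120.3 and 123.1 CPM) but above the TG control (93.5 CPM). Dgkz, at 369 CPM, was below both XC controls (492 and 407 CPM), against its called direction. In early liver 2 it was 0 of 9 (21.5% of all called genes). Rnf128 differed little between them, at 1.74 and 1.13 CPM. Without early liver 2, which leaves 1 early liver library, edgeR called Ndfip1 (log2 fold change 0.98, SE 0.23, adjusted p = 0.0180) and Dgka (-1.01, SE 0.27, adjusted p = 0.0295) against control, and Ndfip1 against early spleen (0.99, SE 0.24, adjusted p = 0.0342). Over all genes the same fits called 1923 and 974.

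The day 14 spleen library, of intermediate activation, was beyond all controls for 5 of the 9 genes (Cblb, Ndfip1, Ndfip2, Dgka and Dgkz), beside 57.0% of all called genes. It had 285 CPM of Cblb, 357 CPM of Ndfip1, 57.6 CPM of Ndfip2, 821 CPM of Dgka and 504 CPM of Dgkz, and 1.44 CPM of Rnf128, inside the control range. The early spleen libraries were beyond the controls for 1 of 9 (Dgkz; 31.0% of all called genes) and 0 of 9 (22.2%), and the undivided cells for 1 of 9 (Ndfip1; 29.0%). These counts use the same controls as the calls, set XC libraries against the TG control too, and stand as descriptions.

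**Figure D3:**
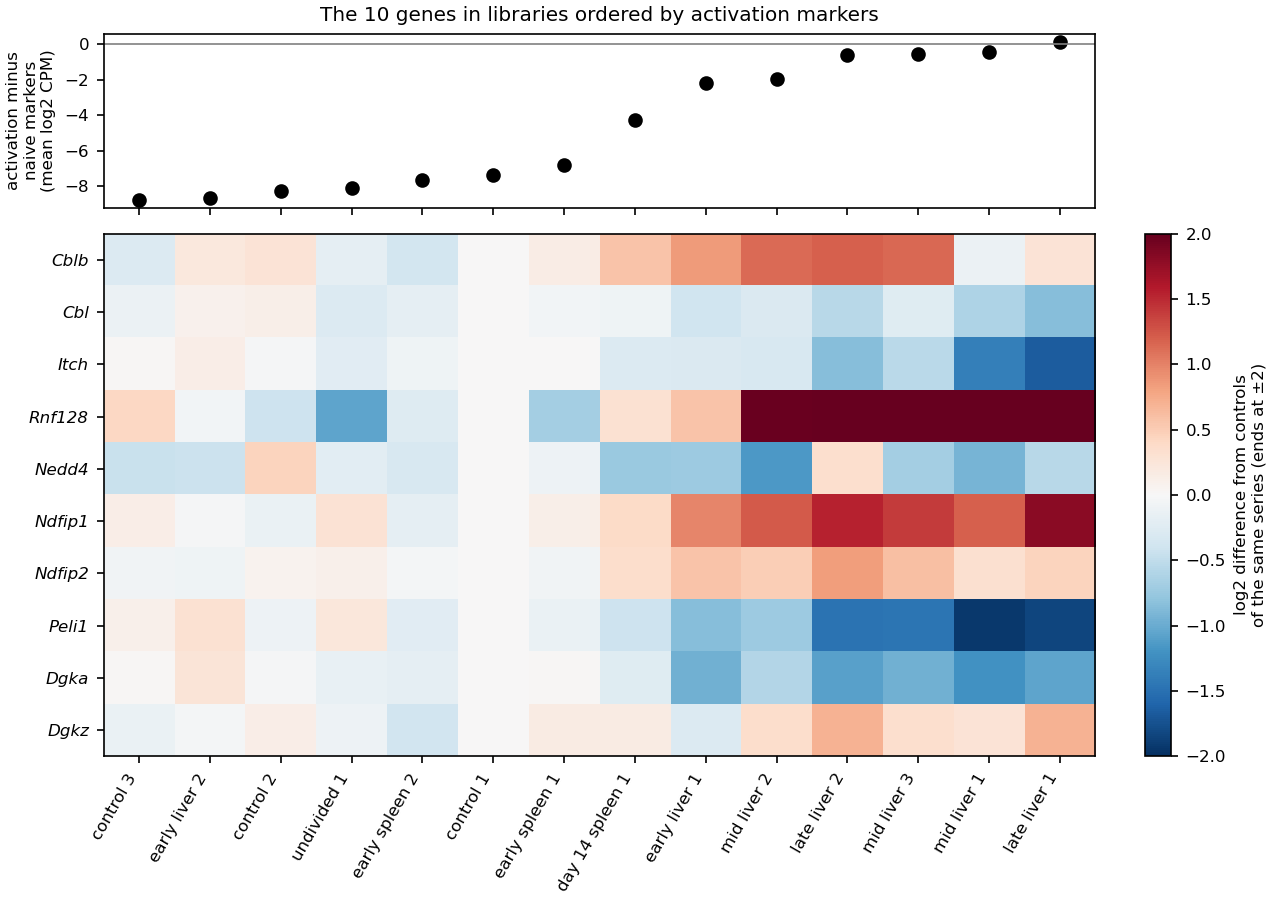
The 14 libraries from left to right by the mean log2 CPM of 10 activation markers minus that of 8 naive markers (upper panel); below, the log2 difference of each gene from the mean of the controls of the same series, red higher and blue lower. Early liver 2 (-8.67) stands among the controls (-8.79 to -7.35), and early liver 1 (-2.22) beside the mid livers. Cblb, Ndfip1, Ndfip2, Peli1 and Dgka shift in early liver 1, while the larger Rnf128 differences are those of mid and late liver.

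Ordered by these markers, the libraries fell into a quiet set of 7 with marker differences of -8.79 to -6.84 (controls, undivided cells, early spleen and early liver 2), the day 14 spleen at -4.27, and an activated set from -2.22 upward (early liver 1, mid and late liver). Of the activation markers, 9 of 10 were higher in liver at days 13 to 18 than in controls (median log2 fold change 6.26), with Havcr2 at 2.31 and an adjusted p of 0.191. Of the naive markers, 8 of 8 were lower (median -1.39). Ndfip1 was between 242 and 337 CPM in the quiet set and between 540 and 854 CPM in the activated set, with 357 CPM in the day 14 spleen. Dgka was between 834 and 1157 CPM in the quiet set and between 361 and 649 CPM in the activated set. Rnf128, Ndfip2 and Peli1 did not overlap between these sets either, whereas Cblb, Cbl, Itch, Nedd4 and Dgkz did. The gap was narrow for Rnf128, from 1.56 CPM in control 3 to 1.74 CPM in early liver 1. Itch was at 93.5 to 133.5 CPM and 29.5 to 99.8 CPM, and Dgkz at 253 to 503 CPM and 308 to 721 CPM. These sets pool both series. Within XC, Itch was at 103.8 to 133.5 CPM and 67.4 to 99.8 CPM, and Cblb at 149.1 to 233.7 CPM and 345.8 to 440.4 CPM. In TG, Itch was at 93.5 CPM in the control and 36.2 and 29.5 CPM in the livers. Cblb was at 112.7 CPM in the TG control and 104.0 and 135.7 CPM in the TG livers. Cbl, Nedd4 and Dgkz overlapped within XC too. The share of all genes without overlap between these sets was not computed, so which of the 10 overlapped stands as a description. Since the libraries form separate clusters, no correlation of the 10 genes with the marker difference is given.

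Ratios of levels per length put the opposite moves side by side. They were chosen after the values were seen and are given without a test. Dgka exceeded Dgkz in controls, with TPM ratios of 2.46, 2.00 and 2.54, and the ratios were 0.708, 1.20 and 0.941 in mid liver and 0.681 and 0.701 in late liver. Early liver 1 was at 1.32 and early liver 2 at 2.78. Cblb over Cbl was 1.504 to 1.896 in controls and 2.46 to 6.00 in livers of days 13 to 18, TG livers included. Ndfip1 over Itch was 4.33 to 6.29 in controls and 19.9 to 73.6 in those livers. By mean TPM the order in controls was Dgka (311), Ndfip1 (186), Peli1 (140), Dgkz (135), Cblb (37.9), Itch (33.9), Ndfip2 (23.0), Cbl (22.4), Nedd4 (9.69) and Rnf128. Neighbours Ndfip1 and Peli1, Peli1 and Dgkz, Cblb and Itch, and Ndfip2 and Cbl differed there by less than the larger of their SDs. In liver Ndfip1 led (418), followed by Dgkz (158), Dgka (137), Cblb (62.1), Peli1 (44.2), Ndfip2 (28.7), Itch (13.8), Cbl (13.2), Nedd4 (6.07) and Rnf128. There Ndfip1 and Dgkz, Dgka and Cblb, and Ndfip2 and Itch differed by more than the larger of their SDs, and the other neighbours by less.

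The deposited values are per transcript, and for Cblb the coding transcripts differed from the sum. Cblb-202, annotated as a retained intron and thus not as a coding mRNA, took 53.3%, 50.5% and 34.4% of Cblb counts in controls. Its share was 16.1%, 17.5% and 19.3% in mid liver and 9.50% and 19.7% in late liver. The groups did not overlap, yet the test of transcript shares gave an adjusted p of 0.153. Activated early liver 1 was at 33.3%, near control 3, and early liver 2 at 46.2%. Shares near or below control 3 were also seen in spleen of leukemia-bearing hosts. They were 31.4% and 35.0% in early spleen, 31.5% in undivided cells and 28.9% in the day 14 spleen. The oligo-dT library of day 0 cells was at 0.463%, below every liver library. Summed over protein-coding transcripts, Cblb was at 68.7, 148.8 and 136.4 CPM in controls, at 110.8, 426.3 and 407.3 CPM in mid liver, and at 146.0 and 424.4 CPM in late liver. On this scale each TG liver was above the TG control as well. The log2 fold change was 1.32 (SE 0.25, adjusted p = 0.00427), or 2.50-fold against 1.68-fold for all transcripts, and Cblb was then called in mid liver (1.26, adjusted p = 0.0142) and in late liver (1.39, adjusted p = 0.00905), where 32.6% and 36.1% of all genes were called.

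**Figure D4:**
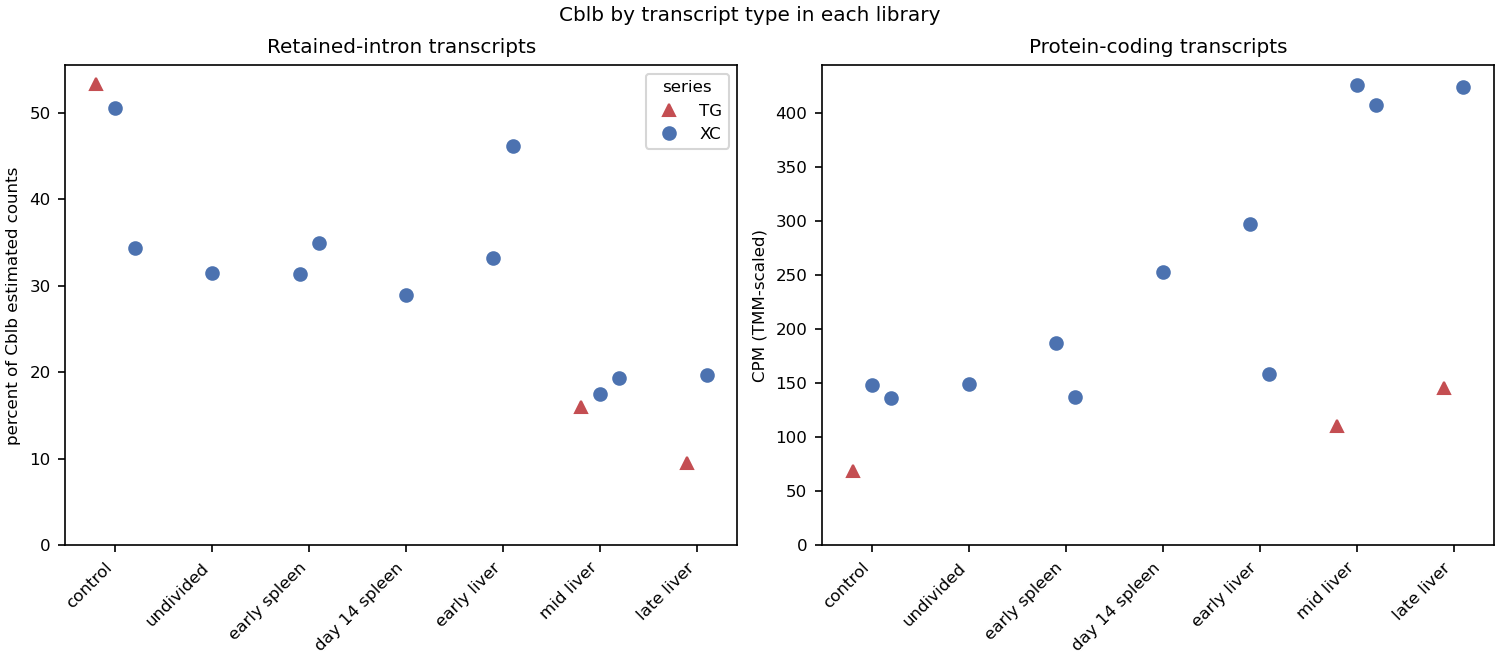
Left, percent of Cblb estimated counts in retained-intron transcripts; right, CPM of Cblb summed over protein-coding transcripts; both axes start at 0, and symbols mark the TG and XC series. The retained-intron share is 34.4% to 53.3% in controls and 9.50% to 19.7% in mid and late liver, and coding CPM is higher in mid and late liver than in the controls of the same series.

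With coding transcripts the count of called genes was 9 of 10 again, though not of the same genes, beside 46.7% of all genes in that fit. Nedd4 was then lower (-0.67, SE 0.24, adjusted p = 0.0416), and Dgkz was at 0.24 (SE 0.18, adjusted p = 0.280). In mid liver 1 coding Dgkz was 191 CPM against 253 CPM in the TG control. The other 8 genes were called in both fits. This alternative was chosen after the data were seen. In the test of shares, 1 transcript of the 10 genes was called among 1.72% of all transcripts tested. It was Ndfip1-207, a retained intron of 729 bases, whose share of Ndfip1 counts was 1.11% to 1.89% in controls and 0.0461% to 0.717% in liver (adjusted p = 0.0441), and its call was lost without the series term and without control 1, mid liver 3, late liver 1 or late liver 2. Itch-202, a coding transcript, took up to 8.71% of Itch counts in controls and 14.5% to 39.3% in liver (adjusted p = 0.124). Rnf128 transcripts were not tested for shares, and Rnf128-201 held at least 85.7% of its counts in controls and at least 88.9% in liver.

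The lists around the 10 genes were described by their counts. Of 16 other ligases of the same families 14 were tested, and 8 were lower and 1 higher at days 13 to 18 (median log2 fold change -1.07). Those with the largest change were Peli3 (-2.88, at 0.703 to 1.04 CPM in controls and 0 to 0.255 CPM in liver), Nedd4l (-1.85), Rnf130 (-1.78) and Rnf167 (-1.59). Nedd4l, the closest relative of Nedd4, was at 31.0 to 59.1 CPM in controls and 7.63 to 24.6 CPM in liver. Of 5 deubiquitinases that act on these ligases or their targets, Otub1, which controls GRAIL stability, was higher (0.67, SE 0.21, adjusted p = 0.0282), and Usp12 (-0.65) and Cyld (-0.58) were lower.

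Of 8 other DAG kinases 6 were tested. Dgkh was higher (2.09, SE 0.26, adjusted p = 0.00233), at 4.76 to 10.0 CPM in controls and 15.5 to 48.3 CPM in liver. So was Dgkg (2.00, SE 0.58, adjusted p = 0.0192), from a low level of 0.689 to 1.23 CPM in controls to 2.20 to 5.73 CPM in liver. Dgkq (-1.13) and Dgke (-0.46) were lower. Of 9 genes that DAG acts on or depends on, 6 were lower and 1 higher (median -0.76). Rasgrp1, the Ras exchange factor that binds DAG, fell by 1.20 (SE 0.21, adjusted p = 0.00367), from 207 to 364 CPM in controls to 66.0 to 235 CPM in liver. Rasgrp2 fell by 1.02, Prkd2 by 0.89 and Prkcq, which encodes PKC-θ, by 0.85 on the log2 scale.

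Of 14 substrates and partners of the ligases, 6 were lower and 2 higher (median -0.36), and Plcg1 and Prkcq of this list are also among the DAG genes. Jun fell by 3.13 on the log2 scale (SE 0.72, adjusted p = 0.0104) and Pik3r1, the phosphoinositide 3-kinase subunit that CBL-B acts on, by 1.52. Zap70 rose by 1.28 (SE 0.22, adjusted p = 0.00352), and Rel, the target of Pellino 1, by 1.22 (SE 0.44, adjusted p = 0.0492). Of 14 other genes linked to anergy, 9 were higher and 2 lower (median 2.13). Izumo1r (5.07), which encodes folate receptor 4, and Nr4a2 (4.34), a nuclear receptor induced by TCR signals, rose, and Dtx1, the ligase Deltex 1 that is induced in anergic CD4+ T cells, fell by 3.28 (SE 0.58, adjusted p = 0.00453), from 179 to 499 CPM in controls to 7.91 to 114 CPM in liver.

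**Figure D5:**
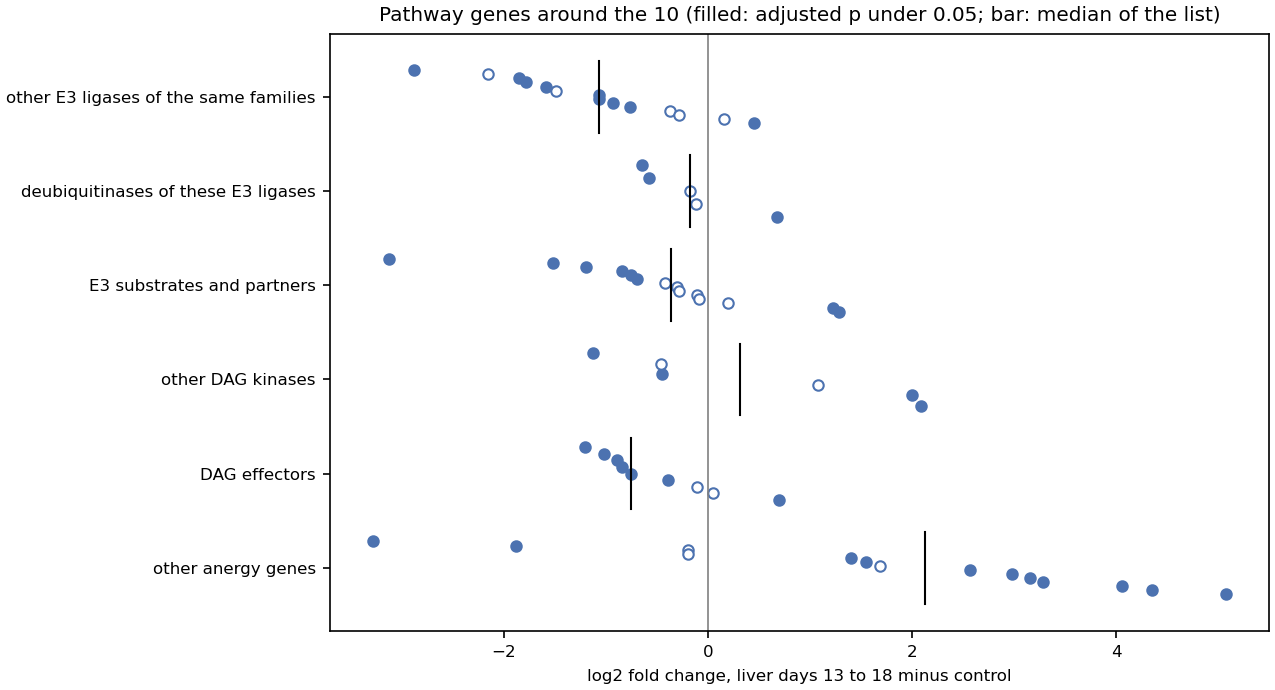
Log2 fold change (horizontal axis) of liver at days 13 to 18 relative to control for the tested genes of 6 lists around the 10 genes; filled points have an adjusted p under 0.05, and the bar is the median of the list. The medians are -1.07 for other ligases of the families, -0.76 for DAG effectors and 2.13 for other anergy genes.

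The genes whose pattern over the 14 libraries was most like that of each of the 10, by Pearson's r of log2 CPM with the series effect removed, are given as a description. For Cblb these were Adam10 (0.97) and Ctla4 (0.97), for Cbl Nfatc3 (0.98) and Brd8 (0.96), and for Itch Vcpip1 (0.99) and Atp11b (0.98). For Rnf128 they were Gas2 (0.97) and Hmox2 (0.96), and for Nedd4, whose best match was weakest, Fam168a (0.88) and Jund (0.84). Ndfip1 was nearest to Lclat1 (0.99) and Cops4 (0.99), and Ndfip2 to Cenpk (0.97) and Adk (0.97). Peli1 was nearest to Akap8l (0.99) and Itpr2 (0.99), Dgka to Gramd1a (0.99) and Arhgap4 (0.99), and Dgkz to Ctbp1 (0.95) and Gnas (0.95). The points share the 14 libraries and their split into quiet and activated cells, so high values are common.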

How the data were processed

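RNA of FACS-sorted cells was sequenced by a low-input protocol (1 library by oligo-dT priming), and per the labels the authors demultiplexed with bcl2fastq and pseudoaligned reads with kallisto to mm10. The deposited values are estimated counts and TPM per transcript. Reads shared by transcripts or paralogs are split by estimation, so values of close relatives and transcript shares are uncertain. Here gene totals were made by adding estimated counts of all transcripts and runs and rounding, with 98.25% of 118783 transcripts matched to a gene. Low-input libraries held 22691255 to 70719703 estimated counts, so counting error is small except for Rnf128.

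Genes reaching 10 counts in 6 or more of the 14 libraries were tested with edgeR 4.0.16 (quasi-likelihood, robust, TMM, two-sided), with terms for group and for library series, taken from titles. P-values were adjusted over 15465 genes by Benjamini-Hochberg, with a threshold of 0.05. CPM are TMM-scaled, except marker sums. DESeq2 1.42.0 was an alternative, and transcript shares were tested with diffSpliceDGE. Steps were tested on simulated data, where DESeq2 made more false calls than edgeR and edgeR missed most of the smaller changes, so a count of 0 by edgeR does not show that levels were alike. The oligo-dT library entered no test. Named genes are the 10, at most 4 called genes per list by size of change, and the 2 most alike genes each. A gene that this rule would name is not reported here. The members and lists were chosen with earlier results of these data known. Promoter windows came from RefSeq (GRCm38.p6) and were used for 8 of the 10 genes. Leaving out noncoding transcripts, or both day 0 controls, were alternatives chosen after seeing the data.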

Additional observations from a re-analysis of the deposited data

Results flagged for a closer look

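Cbl was at 268.5 CPM in the oligo-dT library of day 0 cells, which entered no comparison, above the 3 low-input controls (85.6 to 119.6 CPM). Per length it was not higher, at 21.5 TPM against a control mean of 22.4 TPM. Cbl-211, of 11372 bases, held 99.96% of its Cbl counts there and 17.3% to 49.1% in controls. The title of this library is that of control 1 with a suffix for the oligo-dT preparation.

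Dgkz lay on different sides of the control mean at different liver time points, but the early differences were small. Relative to controls of the same series, both early liver libraries were lower (by 0.28 and 0.04 on the log2 scale), and all mid and late liver libraries were higher. The mean log2 difference was 0.48 above that of early liver in mid liver and 0.85 above it in late liver. Early liver against control gave -0.17 (95% interval -0.65 to 0.31, edgeR adjusted p = 0.850), so a fall in early liver was not shown. Early liver 2, at 435 CPM, lay between the XC controls (492 and 407 CPM). Over protein-coding transcripts mid liver 1 was below its TG control (-0.41). The difference between early and later liver was not tested.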

How the results depend on the processing

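No paired analysis was possible because the labels give the groups no shared replicate numbers. Of the 10 genes, 9 changed in livers of days 13 to 18 against control, 6 in mid and 8 in late liver. Without the series term these counts were 4, 2 and 3, and 4446, 1764 and 2936 of all genes were called. Calls were lost for the 10 genes and for nearly all genes in the fits with fewer samples. These were the XC series alone, with 1 late liver library, and the fit without both day 0 controls, with 1 control. Leaving out 1 library gave 5 to 9 and 0 to 7, and 4 to 9 in late liver with both late liver libraries kept. At days 13 to 18 the count was 5 without control 1 (2143 of all genes called) or control 2 (4922), against 6780 of all genes in the main fit. Early liver against control gave 0 to 2 and against early spleen 0 to 1. Late liver against undivided cells rests on 1 undivided library. Its count rose, as did that of all genes, with DESeq2, without both early liver libraries and without the low count filter. It varied on leaving out 1 library. The transcript count (1) was 0 without the series term and 0 to 1 on leaving out 1 library. Nedd4 turned to 0.10 at days 13 to 18 without both day 0 controls. In late liver it turned to 0.54 there, to 0.21 in the XC series alone, and to 0.02, 0.12 and 0.27 without control 1, control 2 or late liver 1, within a range of -0.57 to 0.27 on leaving out 1 library. Causes were not tested. At 38 to 48 estimated counts a control library, depth limits Rnf128 more than the other genes.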
